A study of Homo sapiens with 6 samples.

Results

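The matrix metalloproteases (MMPs), the ADAM and ADAMTS proteases and the tissue inhibitors of metalloproteases (TIMPs) were examined in a human triple-negative breast cancer line, MDA-MB-231, and in a derivative that grows without glutamine. The genes were taken by a symbol pattern that does not take in every MMP gene, and 70 of the 28265 gene rows matched, 23 of them MMP, 24 ADAM, 19 ADAMTS and 4 TIMP rows. MDA-MB-231GlnIND cells (GlnIND, 3 libraries) had been kept for more than 6 weeks in RPMI medium free of glutamine with 10% dialysed serum. Parental MDA-MB-231 cells (3 libraries) had been kept in glutamine-replete RPMI with 10% undialysed serum, so cell population, glutamine and serum type differed together. The comparison addressed which transcripts differ in cells adapted to chronic glutamine withdrawal. Whether GlnIND is 1 clone or a pool, and whether the libraries came from separate cultures, is not given in the sources used here, so p-values speak only to how much these libraries vary.

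MMPs are zinc enzymes that cut collagens, gelatin and other matrix proteins, and membrane-type MMPs do so at the cell surface. ADAMs are membrane proteins, many of which shed growth factors and receptors from the cell surface, while ADAMTS enzymes are secreted and cut proteoglycans and procollagens. TIMPs bind the active site of these enzymes. In invasive breast cancer cells this system is known for pericellular collagen breakdown and for release of EGF receptor ligands.

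Libraries held 21276815 to 24594248 counts in GlnIND and 18256219 to 21741371 in parental cells. The library parental 1 stood apart, with chi-square values per degree of freedom of 12.6 and 17.6 against parental 2 and 3, whereas parental 2 and 3 had 2.12 between them and GlnIND pairs 1.76 to 2.14. Results of single members that rest on this library, and the totals of members and lists, are given with and without it. VIM, a mesenchymal filament gene, was at 6001 to 6143 CPM (counts scaled to TMM-normalised library size) in GlnIND and 3818 to 4292 CPM in parental libraries. Other genes listed beforehand as present in this line were EGFR, AXL and CD44. EGFR and AXL were at 452 to 464 and 2065 to 2087 CPM in GlnIND, and 335 to 382 and 1108 to 1292 CPM in parental libraries. CD44 was at 773 to 806 CPM in GlnIND and 908 to 1048 CPM in parental libraries. ESR1 and PGR, the hormone receptor genes of the triple-negative label, were at most at 0.307 and 0.179 CPM. The epithelial gene EPCAM was at 1.88 to 2.61 CPM in GlnIND and 12.0 to 17.2 CPM in parental libraries. ERBB2, also a gene of the triple-negative label, was at 61.8 to 65.2 CPM in GlnIND and 31.5 to 41.4 CPM in parental libraries. Its RNA was thus not absent. GATA3, listed beforehand as low or absent in this line, was at 9.74 to 11.6 CPM in GlnIND and 7.02 to 13.9 CPM in parental libraries. CDH1 and KRT5, of the same list, were at most at 0.458 and 0.250 CPM. The summed level of 6 fibroblast markers was 17.2 to 19.6 CPM in GlnIND and 5.03 to 7.38 CPM in parental libraries, mostly COL1A1. Of the other fibroblast markers, LUM was at 1.79 to 2.99 CPM in GlnIND and at 0 in all parental libraries, PDGFRB at 2.91 to 3.34 CPM in GlnIND and 0.915 to 1.30 CPM in parental libraries, and DCN at 0 in all GlnIND libraries and at most at 0.156 CPM in parental libraries. For white blood cells 2 of 4 markers were at 0 in all libraries, and their sum was 0.583 to 0.691 CPM in GlnIND and 0.229 to 0.728 CPM in parental libraries. The 3 endothelial markers summed to 3.95 to 4.71 CPM in GlnIND and 2.40 to 2.68 CPM in parental libraries, mostly PECAM1, and CDH5 and VWF were at most at 0.208 CPM. The part of these markers in the results was not tested.

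The inhibitor set changed its make-up. TIMP3 was 3.80-fold lower and TIMP1 1.85-fold higher in GlnIND cells. Of the proteases, MMP14, the highest per exon length of the 23 MMP genes examined, was 1.26-fold lower, ADAM9 and ADAM10 were 1.46-fold and 1.28-fold lower, and ADAMTS1 was 1.91-fold lower. ADAM23, MMP15 and ADAMTS6 were 9.69-fold, 3.10-fold and 1.79-fold higher, with ADAM23 at or near the floor of detection in parental libraries. ADAMTS5 was nearly undetected in parental cells and present in GlnIND cells. In bulk RNA, fewer expressing cells and less RNA per cell cannot be told apart. By the quasi-likelihood test of edgeR, adjusted over all 13949 tested genes after Benjamini and Hochberg, 20 of 34 tested members were called at an adjusted p under 0.05, against 56.3% of all tested genes. The members called higher numbered 12, against a background of 28.4%, and those called lower 8, against 27.9%. These shares of 58.8%, 35.3% and 23.5% lie near the background, so the number of calls is not a result about these families. The median log2 fold change was -0.02 over the tested members and 0.03 over all tested genes. Over all genes the higher and lower calls numbered 3965 and 3888, against 4749 and 3204 with upper-quartile factors and 5356 and 2810 with library totals alone, where members numbered 13 and 8, and 13 and 7. Without parental 1, 24 of 36 tested members were called, 13 higher and 11 lower, against 65.2% of all genes in that fit, and the ADAM genes called lower were 4 in place of 2 and the TIMP genes called lower 2 in place of 1.

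Among the called members 10 differed by more than 2-fold, 6 higher and 4 lower, where 15.1% of all tested genes did. The CPM ranges of the groups were apart at 22 of the 34 tested members, against 65% of all tested genes. A test for changes beyond 2-fold (edgeR's glmTreat) was passed by 4 members, against 7.21% of all genes. They were ADAM23, ADAMTS5, MMP15 and TIMP3. Of the tested members 27 exceeded the low-count filter of about 0.465 CPM in all 6 libraries, 4 did so in full only in GlnIND and 3 only in parental cells. Those that passed through 1 group alone (MMP13, MMP24, ADAM23 and ADAMTS5 through GlnIND; MMP9, ADAM28 and ADAMTS7 through parental cells) were more apt to differ by that choice.

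**Figure D1:**
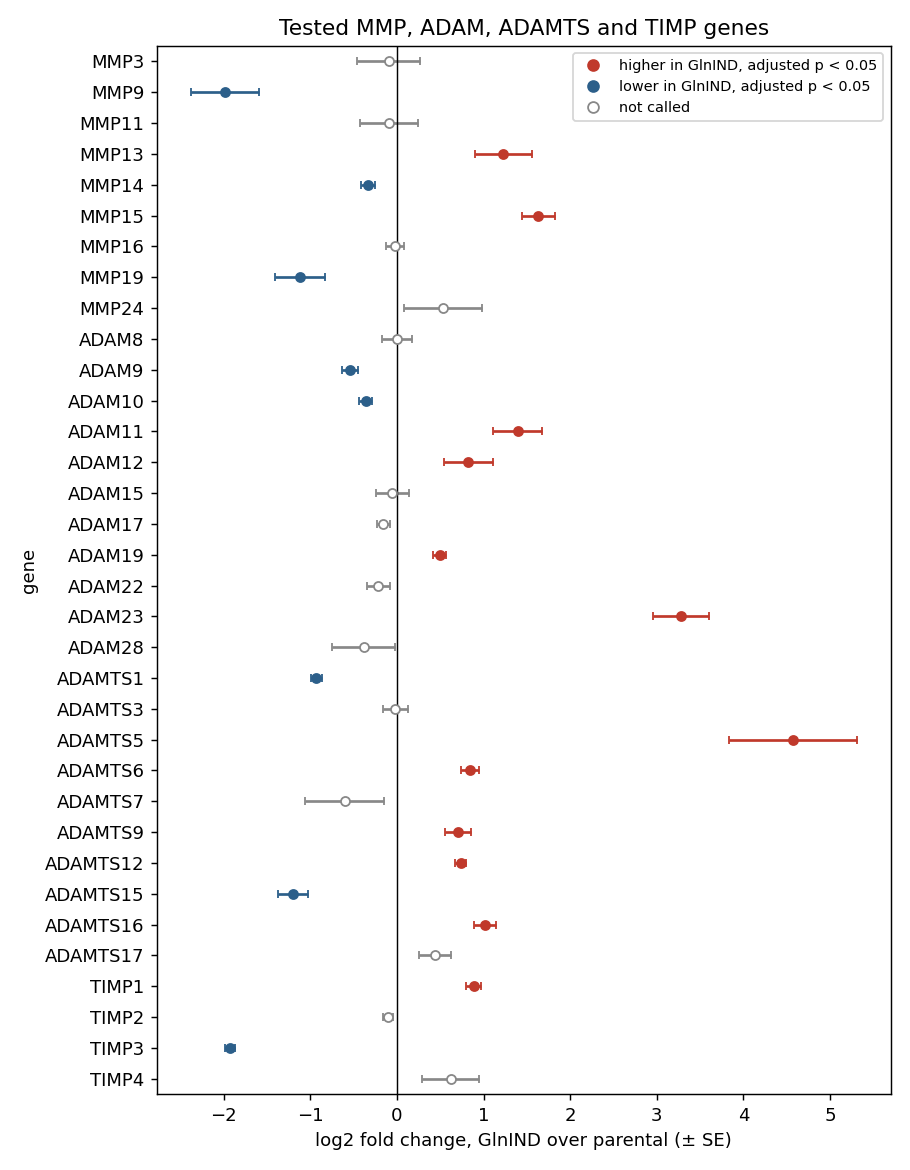
Log2 fold change, GlnIND over parental, with its standard error for the 34 tested genes, ordered by family. Filled red points were higher (12) and filled blue points lower (8) in GlnIND at an adjusted p under 0.05. Fitted changes ran from -1.99 for MMP9 to 4.58 for ADAMTS5, both loosely set because counts fell under the floor of detection in GlnIND 3 for MMP9 and in parental libraries for ADAMTS5.

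TIMP3 encodes the inhibitor that stays bound to matrix and also acts on ADAM17 and on aggrecan-cutting ADAMTS enzymes. It was at 129, 141 and 132 CPM in GlnIND 1, 2 and 3, against 512, 517 and 499.6 CPM in parental 1, 2 and 3. No GlnIND library came near the parental range. The log2 fold change was -1.93 (SE 0.063, edgeR adjusted p = 4.11e-08). TIMP1, a secreted inhibitor of most soluble MMPs, moved the other way, with 139, 137 and 127 CPM in GlnIND and 63.6, 76.2 and 78.3 CPM in parental libraries. All GlnIND libraries were above all parental ones, and the log2 fold change was 0.88 ± 0.088 (SE), with an edgeR adjusted p of 2.94e-05.

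TIMP2, which with MMP14 forms the surface complex that activates pro-MMP2, was at 322, 331 and 339 CPM in GlnIND and at 348, 362 and 355 CPM in parental libraries. The ranges were apart by a small margin and the log2 fold change of -0.10 (SE 0.057) was not called (edgeR adjusted p = 0.151). Without parental 1 it was -0.13, and called (edgeR adjusted p = 0.0124). Scaled by library totals alone it was 0.05, so no direction is given for TIMP2. TIMP4, an inhibitor of restricted tissue range, was at 1.52, 2.00 and 2.07 CPM in GlnIND and at 0.744, 1.14 and 1.77 CPM in parental libraries. Its groups overlapped, and its log2 fold change of 0.62 was not called (edgeR adjusted p = 0.132), except without parental 3 (adjusted p = 0.0344).

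Per kilobase of exon the order of the inhibitors differed between the groups. In GlnIND cells TIMP1 stood first at 92.0 ± 4.56 CPM per kb, then TIMP2 at 81.2 ± 2.03, TIMP3 at 29.1 ± 1.33 and TIMP4 at 1.13 ± 0.18 CPM per kb (SD, n = 3). In parental cells TIMP3 stood first at 111 ± 1.98 CPM per kb, then TIMP2 at 87.2 ± 1.70, TIMP1 at 49.8 ± 5.43 and TIMP4 at 0.738 ± 0.313 CPM per kb (SD, n = 3). No neighbours in either order overlapped across libraries. TIMP3 made up 13.8% to 14.8% of the summed TIMP level per kb in GlnIND libraries and 43.3% to 46.2% in parental libraries. TIMP1 made up 43.4% to 46.8% in GlnIND and 18.1% to 21.4% in parental libraries. The sum of the 4 inhibitors was 203 ± 3.60 CPM per kb in GlnIND and 248 ± 6.95 CPM per kb in parental cells (SD, n = 3 each). The level summed over the 23 MMP genes examined, over the summed TIMP level, was 0.601 to 0.657 in GlnIND and 0.602 to 0.680 in parental libraries, which overlapped. Exon lengths came from GENCODE 29, which is not the annotation the reads were counted on, so levels per kb carry that error.

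**Figure D2:**
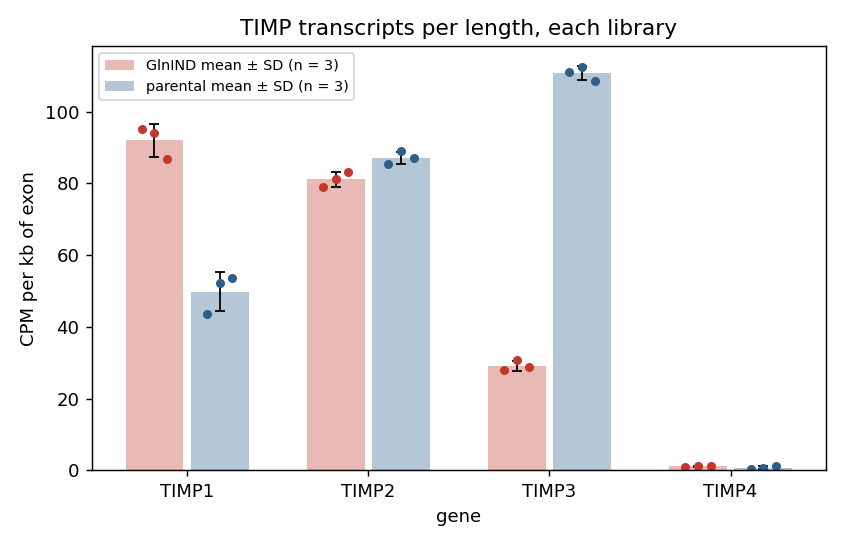
CPM per kb of exon of the 4 TIMP genes, GlnIND bars left of parental bars, with means, SD and the 3 libraries of each group as points. TIMP1 is the highest inhibitor in GlnIND (92.0 CPM per kb) and TIMP3 the highest in parental cells (111 CPM per kb).

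Promoter windows, 250 bases before to 50 bases after the gene start, were available in RefSeq (GRCh38.p14) for 39 of the 70 members. They are shown for the inhibitor pair that moved in opposite directions and for MMP15 and ADAM23, members called higher with large changes, with every GC box match in capitals, that is GGGCGG on one strand and its reverse complement CCGCCC on the other. The windows lie at chrX:47582186-47582485 (TIMP1), chr22:32801455-32801754 (TIMP3), chr16:58025504-58025803 (MMP15) and chr2:206443282-206443581 (ADAM23), all on the plus strand.
TIMP1: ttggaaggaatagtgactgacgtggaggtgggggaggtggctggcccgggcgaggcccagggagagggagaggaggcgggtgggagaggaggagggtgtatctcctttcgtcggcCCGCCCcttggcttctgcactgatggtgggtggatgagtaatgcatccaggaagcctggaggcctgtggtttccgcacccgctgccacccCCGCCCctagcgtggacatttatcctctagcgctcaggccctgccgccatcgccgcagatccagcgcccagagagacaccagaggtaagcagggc
TIMP3: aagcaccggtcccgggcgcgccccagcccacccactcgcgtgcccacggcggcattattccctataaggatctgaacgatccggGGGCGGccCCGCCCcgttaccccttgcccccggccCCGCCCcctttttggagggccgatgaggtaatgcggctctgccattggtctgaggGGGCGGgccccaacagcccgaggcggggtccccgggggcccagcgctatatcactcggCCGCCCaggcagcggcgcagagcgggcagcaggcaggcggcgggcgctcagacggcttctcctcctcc
MMP15: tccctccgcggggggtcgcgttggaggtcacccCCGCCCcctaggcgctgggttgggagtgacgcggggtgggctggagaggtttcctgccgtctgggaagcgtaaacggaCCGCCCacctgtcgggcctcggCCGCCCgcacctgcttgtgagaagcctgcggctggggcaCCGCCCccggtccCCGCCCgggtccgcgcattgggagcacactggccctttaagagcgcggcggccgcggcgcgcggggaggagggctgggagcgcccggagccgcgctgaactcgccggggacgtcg
ADAM23: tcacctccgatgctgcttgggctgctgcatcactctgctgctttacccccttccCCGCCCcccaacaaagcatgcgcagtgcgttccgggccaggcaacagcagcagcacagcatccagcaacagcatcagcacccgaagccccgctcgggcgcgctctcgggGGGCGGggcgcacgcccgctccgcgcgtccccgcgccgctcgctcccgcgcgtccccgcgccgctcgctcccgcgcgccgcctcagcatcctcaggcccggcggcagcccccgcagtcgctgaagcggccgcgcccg
TIMP3 held 5 GC box matches and TIMP1 2, and the windows were 72.7% and 65% G or C with 31 and 16 CG dinucleotides. MMP15 held 5 matches and ADAM23 2, with 39 and 41 CG dinucleotides. Further motifs were searched on both strands. The AP-1 motif was read as TGANTCA. The TATA box was read as TATAAA. The E-box was read as CACGTG. The amino acid response element was read as TGATGNAA. None of these motifs was in these 4 windows. A GC box match was in 18 of the 20 tested members with a window, in 26 of all 39 members with a window and in 44.6% of all 27305 promoter windows. The TATAAA match was in 0 of these 20, in 8 of all 39 members with a window and in 12.0% of all windows. AP-1 matched in 4 of the 39 members, among tested members ADAMTS12 alone, and in 7.76% of all windows. The median G or C content was 72.7% over the 20 tested members and 58.3% over all windows. The shares over all windows include genes too low to test, and shares over tested genes alone were not computed. No trait of the family is read from them, and the matches describe letters only.

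The surface collagenase gene MMP14 made up 95.8% to 95.9% of the level per kb summed over the 23 MMP genes examined in GlnIND libraries and 96.3% to 97.0% in parental libraries. It was at 437, 481 and 470.0 CPM in GlnIND and at 520.4, 626 and 608 CPM in parental libraries. GlnIND libraries were all below, and the log2 fold change was -0.34 ± 0.08 (SE), with an edgeR adjusted p of 0.00532. With library totals alone it was -0.19 and not called (edgeR adjusted p = 0.0906), and net of its chromosomal neighbours, as described later, it was -0.60 and called (edgeR adjusted p = 0.000255). MMP15, a further membrane-type MMP, was at 5.02, 5.24 and 5.83 CPM in GlnIND and at 1.49, 1.94 and 1.77 CPM in parental libraries. The ranges were well apart, and the log2 fold change was 1.63 ± 0.187 (SE), with an edgeR adjusted p of 6.78e-05. MMP16, the third expressed membrane-type gene, was at 19.7, 19.8 and 21.4 CPM in GlnIND and at 22.5, 19.9 and 19.5 CPM in parental libraries. Its groups overlapped, and the log2 fold change was -0.02 ± 0.101 (SE), with an edgeR adjusted p of 0.854. MMP24 averaged 0.787 CPM in GlnIND and 0.537 CPM in parental cells and was not called.

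The tested secreted MMPs of this set averaged at most 2.71 CPM in either group, with MMP19 in parental cells the highest. MMP9, a gelatinase, was at 0.404, 0.458 and 0.192 CPM in GlnIND, from 9, 11 and 5 counts, and at 1.04, 1.43 and 1.72 CPM in parental libraries, from 21, 25 and 33 counts. All GlnIND libraries were lower, and the log2 fold change was -1.99 ± 0.395 (SE), with an edgeR adjusted p of 0.00194. GlnIND 3, at 5 counts, was under the floor of detection, so the size of the change is loosely set. An antisense gene, SLC12A5-AS1, covers part of the 18.4% of MMP9 exon length shared with other genes and had 12 GlnIND and 1 parental counts. As the strand setting is not given, reads of the shared part cannot be assigned. MMP13, a collagenase, was at 0.987, 1.17 and 1.07 CPM in GlnIND and at 0.496, 0.343 and 0.520 CPM in parental libraries. It was higher in all GlnIND libraries, and the log2 fold change was 1.23 ± 0.328 (SE), with an edgeR adjusted p of 0.00976. Parental 2, at 6 counts, was at the floor of detection, so this size too is loosely set. MMP19, a broadly acting secreted MMP, was at 0.897, 1.71 and 1.11 CPM in GlnIND and at 2.18, 2.97 and 2.96 CPM in parental libraries. It was lower in all GlnIND libraries, and the log2 fold change was -1.12 ± 0.285 (SE), with an edgeR adjusted p of 0.00775. The stromelysin genes MMP3 and MMP11 averaged 0.881 and 0.798 CPM in GlnIND and 0.950 and 0.840 CPM in parental cells, with overlapping groups and no call. MMP2, the gelatinase that MMP14 activates, had 25 counts in GlnIND libraries, 18 of them in GlnIND 2, and 10 in parental libraries, too few to test. In total 2 of 9 tested MMP genes were higher, 3 lower and 4 not called, where 28.4% of all tested genes were higher and 27.9% lower.

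Of 8 tested ADAMs that carry a catalytic site 2 were higher (28.4% of all tested genes), 2 lower (27.9%) and 4 not called, among them ADAM28, which averaged 0.458 CPM in GlnIND and 0.595 CPM in parental cells. ADAM9, a sheddase of broad substrate range, was at 214, 233 and 232 CPM in GlnIND and at 378, 325 and 287 CPM in parental libraries. The groups did not overlap, and the log2 fold change was -0.54 ± 0.096 (SE), with an edgeR adjusted p of 0.000984. ADAM10, which starts cleavage of Notch receptors and of the amyloid precursor, was at 153, 165 and 161 CPM in GlnIND and at 223, 193 and 200.3 CPM in parental libraries. It was lower in all GlnIND libraries, and the log2 fold change was -0.36 ± 0.071 (SE), with an edgeR adjusted p of 0.00188. With library totals alone it was -0.21, still called (edgeR adjusted p = 0.0213). ADAM17, the sheddase of TNF and EGF receptor ligands, was at 74.3, 87.2 and 84.5 CPM in GlnIND and at 95.6, 89.5 and 89.0 CPM in parental libraries. The ranges were apart, but the log2 fold change of -0.16 (SE 0.079) was not called (edgeR adjusted p = 0.118). Other genes cover 28.5% of its exon length, among them IAH1 on the opposite strand, itself lower at 15.1 ± 2.85 CPM in GlnIND and 21.6 ± 1.83 CPM in parental cells (SD, n = 3 each).

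ADAM19, known for cutting neuregulin, was at 113, 129 and 127 CPM in GlnIND and at 81.9, 88.2 and 92.3 CPM in parental libraries. All GlnIND libraries were above, and the log2 fold change was 0.49 ± 0.077 (SE), with an edgeR adjusted p of 0.000481. ADAM12, of the same branch, was at 1.97, 2.95 and 3.03 CPM in GlnIND and at 1.44, 2.00 and 1.09 CPM in parental libraries. GlnIND 1 lay just below parental 2, and the log2 fold change of 0.82 ± 0.286 (SE), called at an edgeR adjusted p of 0.0323, lost its call without GlnIND 2 (adjusted p = 0.111), GlnIND 3 (0.122) or parental 3 (0.106).

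ADAM8 and ADAM15 turned on a single library. ADAM15, which carries an integrin-binding domain, was at 102, 105 and 105 CPM in GlnIND and at 69.4, 124 and 131 CPM in parental libraries. Parental 1 lay below every GlnIND library and the other parental libraries above them. With all libraries the log2 fold change was -0.05 ± 0.189 (SE), with an edgeR adjusted p of 0.828, and without parental 1 it was -0.30 and called (edgeR adjusted p = 1.55e-06). ADAM8, a sheddase known from leukocytes, was at 69.0, 72.6 and 73.5 CPM in GlnIND and at 48.7, 82.5 and 83.5 CPM in parental libraries. Parental 1 was again the lowest, and the log2 fold change was 0.00 with all libraries (SE 0.172, edgeR adjusted p = 0.987) and -0.22 without parental 1 (edgeR adjusted p = 0.00101). For ADAM9, by contrast, parental 1 was the highest library.

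ADAM11, ADAM22 and ADAM23 lack a catalytic site and act as receptors for secreted LGI proteins, chiefly in neurons. ADAM23 was at 3.68, 4.66 and 3.11 CPM in GlnIND, from 82, 112 and 81 counts, and at 0.298, 0.572 and 0.312 CPM in parental libraries, from 6, 10 and 6 counts. The groups were far apart, and the log2 fold change was 3.28 ± 0.323 (SE), with an edgeR adjusted p of 2.69e-05. Parental 1 and 3, at 6 counts, were at the floor of detection, so the size of the change is loosely set. ADAM11 was at 3.81, 4.41 and 2.76 CPM in GlnIND and at 1.09, 1.20 and 1.87 CPM in parental libraries. It was higher in all GlnIND libraries, and the log2 fold change was 1.39 ± 0.279 (SE), with an edgeR adjusted p of 0.00204. ADAM22 was at 13.1, 12.2 and 12.0 CPM in GlnIND and at 15.5, 12.1 and 15.6 CPM in parental libraries. Its groups overlapped, and the log2 fold change of -0.21 ± 0.129 (SE) was not called (edgeR adjusted p = 0.183), except when parental 2 was left out (-0.34, adjusted p = 0.0431) or when neighbouring genes were allowed for, as given later.

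**Figure D3:**
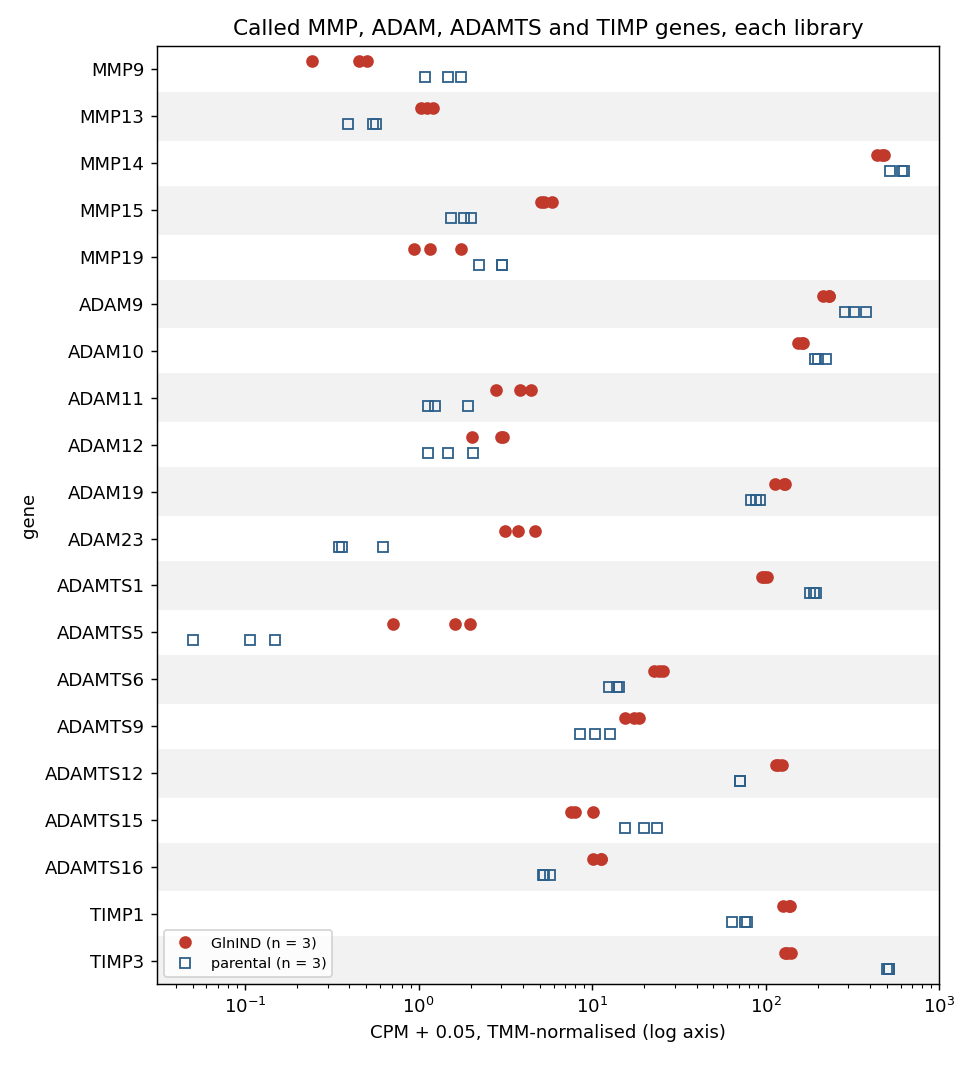
CPM of the 20 called genes in each library on a log axis (0.05 added so that 0 can be drawn), GlnIND as red circles above parental as blue squares in each row. The groups are apart in every row but ADAM12, and the widest gaps are at ADAMTS5, ADAM23 and TIMP3.

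Of the 10 tested ADAMTS genes 5 were higher, 2 lower and 3 not called, beside 28.4% higher and 27.9% lower over all tested genes, and nothing particular to the family is read from so few genes. Enzymes that cut the proteoglycans aggrecan and versican went both ways. ADAMTS1 was at 95.2, 98.4 and 102 CPM in GlnIND and at 189, 179.6 and 196 CPM in parental libraries. It was lower in all GlnIND libraries by a wide margin, and the log2 fold change was -0.93 ± 0.065 (SE), with an edgeR adjusted p of 2.92e-06. ADAMTS5, which lies beside ADAMTS1 on chromosome 21, had 35, 16 and 50 counts in GlnIND and 2, 1 and 0 in parental libraries. The ratio of GlnIND to parental counts, scaled to library size, was 26.5. Its 95% exact counting interval, taken on halved counts, was 5.16 to 167, and the edgeR adjusted p was 0.000558. GlnIND libraries were thus at 1.57, 0.666 and 1.92 CPM, and parental libraries at most at 0.0992 CPM, under the floor of detection. ADAMTS9 was at 18.6, 15.5 and 17.5 CPM in GlnIND and at 12.6, 8.52 and 10.3 CPM in parental libraries. It was higher in all GlnIND libraries, and the log2 fold change was 0.71 ± 0.151 (SE), with an edgeR adjusted p of 0.00294. ADAMTS15 was at 7.94, 10.0 and 7.56 CPM in GlnIND and at 15.4, 23.6 and 19.9 CPM in parental libraries. It was lower in all GlnIND libraries, and the log2 fold change was -1.20 ± 0.175 (SE), with an edgeR adjusted p of 0.000297.

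ADAMTS12, which cuts cartilage oligomeric matrix protein, was at 114, 124 and 118 CPM in GlnIND and at 71.3, 71.2 and 71.5 CPM in parental libraries. The parental libraries were nearly equal and all GlnIND libraries above them, and the log2 fold change was 0.74 ± 0.064 (SE), with an edgeR adjusted p of 1.23e-05. ADAMTS6 was at 24.2, 22.8 and 25.6 CPM in GlnIND and at 13.8, 12.4 and 14.3 CPM in parental libraries. ADAMTS16 was at 11.3, 10.0 and 11.2 CPM in GlnIND and at 5.16, 5.21 and 5.67 CPM in parental libraries. For both, all GlnIND libraries were above all parental ones, with log2 fold changes of 0.84 (SE 0.104) and 1.02 (SE 0.129) and edgeR adjusted p values of 0.000112 and 0.000127. ADAMTS3, a procollagen N-propeptidase, was at 7.94, 9.45 and 9.63 CPM in GlnIND and at 10.3, 9.04 and 8.06 CPM in parental libraries. Its groups overlapped and its log2 fold change was -0.02 (SE 0.143, edgeR adjusted p = 0.913). ADAMTS17 averaged 4.04 CPM in GlnIND and 2.98 CPM in parental cells, with ranges apart and an edgeR adjusted p of 0.0711, and ADAMTS7 averaged 0.489 CPM in GlnIND and 0.748 CPM in parental cells, with overlap.

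The other 36 members were too low to test. Of these 13 had 0 counts in all libraries, among them MMP7, MMP20, MMP26, MMP27, ADAM2, ADAM7 and ADAM18, genes known from other tissues. The remaining 23 had at most 24 counts in any library and at most 56 in all. Low counts were mostly even (60.6% to 65.0% of genes under 20 counts), as if each end of a fragment had been counted, so the floor was put at 3 read pairs or 6 counts, which is 0.230 to 0.343 CPM in a library. ADAM21, a testis ADAM, had 24, 12 and 10 counts in GlnIND and 4, 4 and 2 in parental libraries, and MMP25, a membrane-type MMP of leukocytes, had 18, 6 and 12 counts in GlnIND and 2, 2 and 4 in parental libraries. Both were named after their values were seen. ADAM21 entered the test without parental 1 and was called (log2 fold change 1.92, edgeR adjusted p = 0.0162), and MMP25 entered it and was not (1.57, adjusted p = 0.0604). Both entered through GlnIND libraries alone and so were more apt to differ by that choice. Their parental counts were all under the floor of 6 counts. ADAMTS20 had 2 counts in GlnIND and 24 in parental libraries, a ratio of 0.0655. Its 95% exact counting interval, also on halved counts, was 0.00153 to 0.443. Reads of the near-identical MMP23A and MMP23B may have been split or lost, and they had 2 and 0 counts in GlnIND and 3 and 1 in parental libraries. The interval and the floor reflect counting alone, and reads without molecular identifiers may be PCR copies of 1 molecule.

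Neighbouring genes moved with some members. For each gene the median log2 fold change of the 40 nearest tested genes on its chromosome was taken, in the RefSeq gene order of GRCh38.p14. The windows of MMP3 and MMP13, in the MMP cluster of chromosome 11, had medians of -1.06 and -1.07, and that of ADAMTS15, further along the chromosome, had -0.95. ADAMTS15 itself was at -1.20, and with this shift removed at -0.27, no longer called (edgeR adjusted p = 0.236). MMP13 stood against its window, and with the shift removed it was at 2.28 (adjusted p = 0.000345). MMP3 was then at 0.95 and not called (adjusted p = 0.0531).

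ADAMTS1 and ADAMTS5, side by side on chromosome 21, had window medians of -0.41 and -0.54 and moved in opposite directions. With the shift removed ADAMTS1 was at -0.53 (adjusted p = 0.000147) and ADAMTS5 at 5.08 (adjusted p = 0.000341). TIMP1, ADAMTS12 and ADAMTS16 lie among genes that were higher, with medians of 0.48, 0.47 and 0.50, and stood at 0.40, 0.26 and 0.51 with the shift removed, each still called (adjusted p = 0.00463, 0.00736 and 0.00886). TIMP3 and MMP9 moved against their windows of 0.21 and 0.34, and were at -2.14 and -2.33 with the shift removed, both called. MMP16 and ADAM22 lie among lower genes (-0.65 and -0.59) and would be called higher, at 0.62 and 0.37 (adjusted p = 0.000788 and 0.037), while TIMP2, among higher genes (0.28), would be called lower at -0.39 (adjusted p = 0.000426). ADAM19 was at 0.33 and called (adjusted p = 0.0062), and ADAM12 was at 0.67 and not called (adjusted p = 0.0767). The shift was removed as if known without error, and its cause was not tested.

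**Figure D4:**
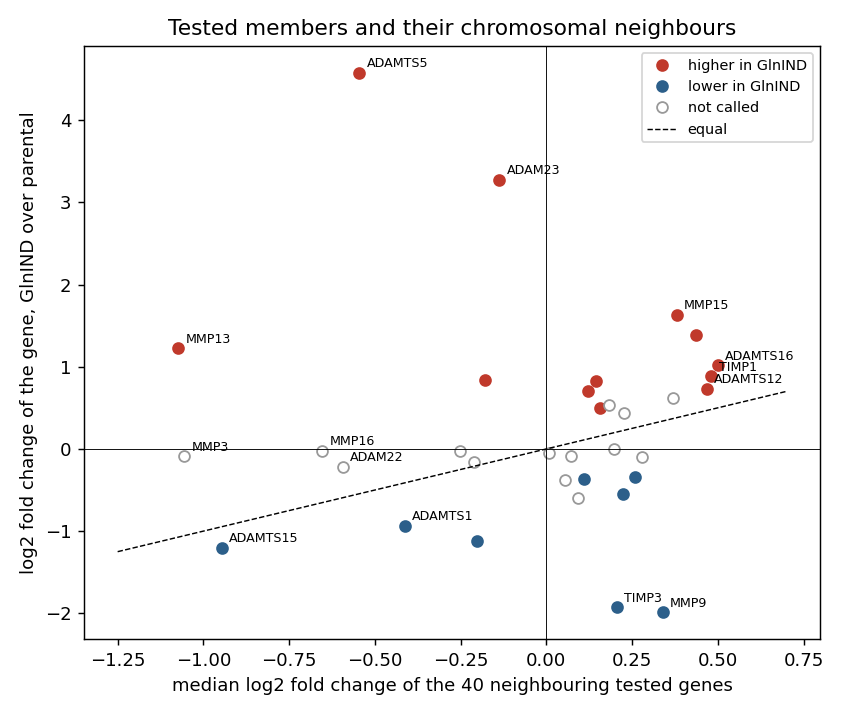
Log2 fold change of each tested gene (vertical axis) against the median log2 fold change of its 40 neighbouring tested genes (horizontal axis), with filled points for called genes and a dashed line where both are equal. ADAMTS15 lies near the line, while MMP13, ADAMTS5, TIMP3 and MMP9 lie on the other side of 0 from their neighbours.

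Genes that work with these proteases were followed in 10 lists, of which 98 of 127 genes were tested, 33 higher, 27 lower and 38 not called. Over all tested genes 28.4% were higher and 27.9% lower, and the counts of each list are to be read beside these shares. Without parental 1 the lists held 34 higher and 33 lower genes, where 65.2% of all genes were called in that fit. No list was tested as a set. In plasminogen activation, which feeds MMP activation, 3 of 9 tested genes were higher, 3 lower and 3 not called, with a median log2 fold change of -0.01. PLAUR, the urokinase receptor, was at 112 ± 4.86 CPM in GlnIND and 177 ± 2.90 CPM in parental cells, and the plasminogen activator inhibitor SERPINB2 at 1.09 ± 0.474 CPM in GlnIND and 18.2 ± 1.14 CPM in parental cells (SD, n = 3 each). Of 3 tested membrane serine protease genes and inhibitors all 3 were higher, among them the inhibitors SPINT1 and SPINT2 by 1.52 and 0.65 on the log2 scale. The other, TMPRSS6, had 13, 12 and 20 counts in GlnIND and 2, 1 and 4 in parental libraries. Its parental counts were under the floor of detection, and it passed the filter through GlnIND alone. SPINT2 was not called with the neighbour shift removed (0.32, edgeR adjusted p = 0.0548). Of 7 tested proprotein convertases, which cut the prodomains of membrane-type MMPs and ADAMs, 4 were higher, 1 lower and 2 not called. PCSK5 and PCSK6 were at 9.78 ± 0.635 and 3.85 ± 0.688 CPM in GlnIND and at 2.40 ± 0.655 and 0.979 ± 0.295 CPM in parental cells (SD, n = 3 each).

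The partners of ADAM10 and ADAM17 numbered 4 higher, 2 lower and 3 not called of 9, with 1 lower when GlnIND 3 was left out. TSPAN33, a tetraspanin partner of ADAM10, and PACS2, which sorts ADAM17, rose by 1.37 and 1.11 on the log2 scale. Of 22 tested shed substrates 3 were higher, 11 lower and 8 not called, with a median log2 fold change of -0.37, where 28.4% of all tested genes were higher and 27.9% lower with a median of 0.03. Net of their neighbours the lower genes MET, L1CAM, TNFRSF1A and CD44 were at 0.18, 0.07, -0.09 and -0.03. The other lower genes, HBEGF, EREG, NRG1, TNFRSF1B, NOTCH1, SDC4 and CX3CL1, were at -0.88, -0.49, -1.07, -2.89, -0.60, -1.14 and -5.08. CX3CL1 passed the filter through parental libraries alone. The higher genes EGF, NOTCH3 and AXL were at 1.51, 1.17 and 0.33. TNFRSF1B, a TNF receptor, was at 1.30 ± 0.246 CPM in GlnIND and 10.9 ± 0.204 CPM in parental cells (SD, n = 3 each), and EGF, a growth factor, was at 3.79 ± 0.561 CPM in GlnIND and 1.61 ± 0.212 CPM in parental cells. Among other inhibitors and receptors 3 of 6 were higher, 1 lower and 2 not called. SPOCK1, a matrix proteoglycan, was at 52.8 ± 5.46 CPM in GlnIND and 1.50 ± 0.428 CPM in parental cells, and LRP1, the endocytic receptor that clears proteases and TIMPs, at 30.1 ± 0.503 CPM in GlnIND and 5.69 ± 0.958 CPM in parental cells (SD, n = 3 each).

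Of 13 cathepsins and cystatins 4 were higher, 4 lower and 5 not called. CTSC and CTSS, cysteine cathepsins, had log2 fold changes of -1.64 and -2.05, and 2 genes were higher when any 1 of the GlnIND libraries was left out. Of 10 tested ADAMTS-like genes and substrates 3 were higher, 1 lower and 6 not called, with ADAMTSL3 and ADAMTSL4 up by 1.47 and 1.75 on the log2 scale. The lower gene, THBS1 (log2 fold change -0.19, edgeR adjusted p = 0.0332), named after its value was seen, was not called when any 1 of the GlnIND libraries was left out, and 2 genes were called lower without parental 1. Of 4 tested genes of other zinc metalloproteases and their enhancer proteins 1 was higher (PCOLCE2, an enhancer of procollagen processing, 0.63), 1 lower (ECE1, the endothelin-converting enzyme, -0.84) and 2 not called. Of 15 transcription factors known to act on MMP promoters 5 were higher, 3 lower (5 without parental 3) and 7 not called. ETS1 and NFKB1 had log2 fold changes of -1.07 and -1.03. The neighbours of ETS1 had a median of -0.95, and net of that ETS1 was at -0.13, not called (edgeR adjusted p = 0.0897). The edgeR adjusted p of the genes named from these lists was at most 0.00538, THBS1 excepted. Net of their neighbours PLAUR, TSPAN33 and CTSC were at -1.21, 2.08 and -0.95, all called.

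**Figure D5:**
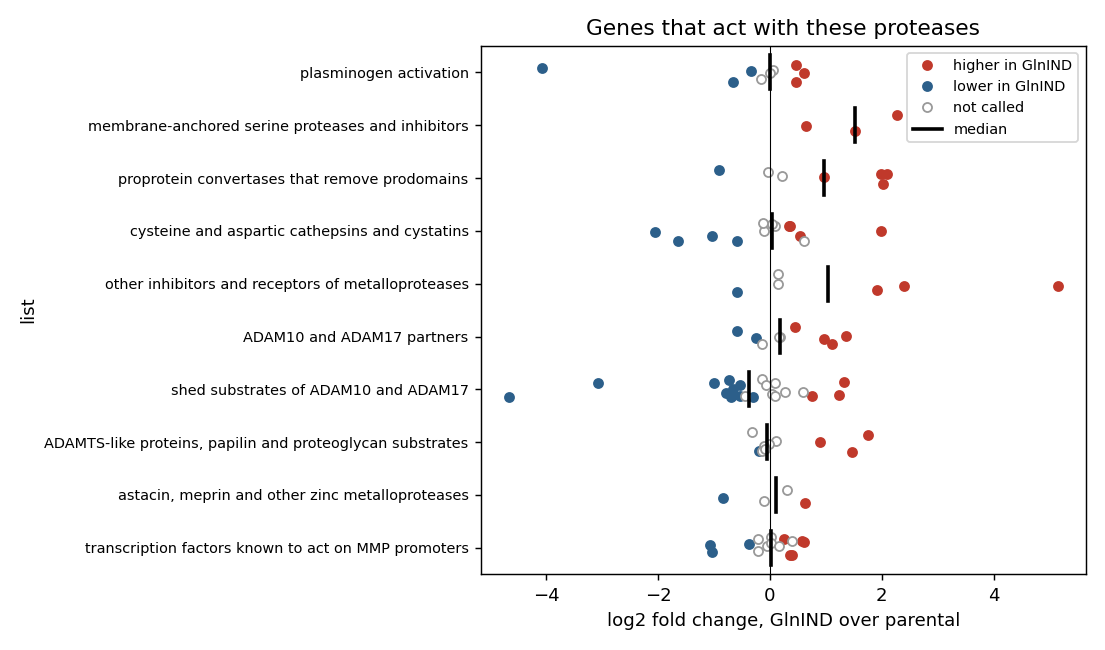
Log2 fold change, GlnIND over parental, of the tested genes of each list, filled where called, with the list's median as a black bar. Shed substrates of ADAM10 and ADAM17 hold 11 lower and 3 higher of 22 genes and the convertases 1 lower and 4 higher of 7, where 27.9% of all tested genes were lower and 28.4% higher. Net of their neighbours the lower substrates MET, L1CAM, TNFRSF1A and CD44 were at 0.18, 0.07, -0.09 and -0.03, and the others at -5.08 to -0.49. The lower convertase PCSK7 was at 0.06 net of its neighbours, and the higher PCSK4 passed the filter through GlnIND alone.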

How the data were processed

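RNA was sequenced from polyA-selected libraries of snap-frozen cells, per the labels' protocols. The authors deposited raw counts for each gene symbol, as a table for every library and as 1 matrix. STAR, featureCounts, DESeq and FastQC and the build hg19 are named in the submitters' processing notes, while versions, annotation and strand setting are not given in the sources used here. The matrix equals the tables with replicates 1 and 3 exchanged within each group, and numbers here follow the tables. Counts were tested with edgeR 4.0.16 (quasi-likelihood, two-sided, TMM factors, filterByExpr with a minimum count of 10 and total of 15, group alone) in R 4.3.3, with Benjamini-Hochberg adjustment over 13949 genes that hold 99.9% of counts. The common biological coefficient of variation was 9.79%, and 4.57% without parental 1. SE values were derived from the F statistic. An exact permutation test of 3 against 3 cannot give a p under 0.1. Chi-square values between libraries and exact counting intervals used halved counts, while the ratios used full counts.

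Values by library are given for called members with a mean of at least 1 CPM in a group, for any with 0 to 6 counts in 1 group and 1 CPM in the other, and for tested members not called with at least 5 CPM. TIMP4 was added after its values were seen. Of each list the 2 called genes with the largest change among those whose mean over all libraries was at least 1 CPM are named. Further list genes were named after their values were seen. Members and lists were chosen with earlier results of these data known. Some genes are not reported here. Neighbours were placed by symbol for 27598 of 28265 rows. Alternatives were RLE and upper-quartile factors, library totals, 2 other filters, DESeq2 1.42.0, limma-voom (limma 3.58.1), glmTreat, a replicate block, the matrix, the neighbour shift and each library left out. The pipeline was tested on simulated data.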

Additional observations from a re-analysis of the deposited data

How the results depend on the processing

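Of the 27 members that the rule gives by library (TIMP4 is not among them), the direction and the side of the threshold were kept by all 27 with the replicate block and the matrix, 26 with RLE factors, no filter, DESeq2 or limma-voom, 24 with upper-quartile factors, 22 when scaled by library totals and 19 net of the neighbour shift, and by all 25 that passed a CPM of 1 in 3 libraries. The count of called members was 18 to 22 under these settings, and 20 to 24 when 1 library was left out. Of the 20 called members 19 were called in each fit without 1 library, the exception being ADAM12. Against a log2 fold change of 1, members called numbered 4 (3 higher, 1 lower), all genes 1006 (656 higher, 350 lower) and list genes 4 higher and 5 lower. Upper-quartile factors moved the median of all genes to 0.12 and library totals to 0.18, with 4749 higher and 3204 lower, and 5356 higher and 2810 lower genes, against 3965 and 3888. Among the 27 members the log2 fold change changed sign for those not called: ADAM8 (RLE -0.0090, no filter -0.0010, DESeq2 -0.0096, neighbour shift removed -0.20, without 1 library -0.22 to 0.11), MMP16 (upper quartile 0.068, totals 0.13, neighbours 0.62, without 1 library -0.086 to 0.034), ADAM15 (upper quartile 0.036, totals 0.095, limma-voom 0.0056, without 1 library -0.30 to 0.088), ADAMTS3 (upper quartile 0.072, totals 0.14, neighbours 0.22, without 1 library -0.13 to 0.070), TIMP2 (totals 0.050), ADAM17 (neighbours 0.046) and ADAM22 (neighbours 0.37). Outside the 27, MMP3 (neighbours 0.95, without 1 library -0.39 to 0.14) and MMP11 (without 1 library -0.32 to 0.066) also changed sign. The cause was not tested. Same-numbered GlnIND and parental libraries did not deviate together (correlations -0.06, 0.03 and -0.04). With 3 libraries in each group this does not settle whether they were handled as pairs. With the replicate block 20 members were called, 12 higher and 8 lower, and 7303 of all genes. The 36 members with too few counts were not tested.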
